A study of Rattus norvegicus with 9 samples.

Results

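The effect of direct current on gene expression was examined by comparing 3 libraries of stimulated rat cortical neurons (DCS, called DES in the labels) with 3 libraries of unstimulated neurons (control). These 6 of the 9 libraries of the series were chosen by their group labels alone, and the comparison covers the 16284 of 32623 table entries that passed a filter on low counts. The other 3 libraries, from neurons under alternating current (ACS), entered the same fit to share its estimate of the spread, and their values are given only where they set a DCS value in context. All cultures were wild-type primary cortical cells of Wistar rat embryos (embryonic day 16 to 18), grown in Neurobasal medium with B27. Stimulated cultures received 3 µA for 20 min per day over 7 days, delivered in the study's methods through conductive indium tin oxide glass, and the labels place all cells at day 7 in vitro, whereas the growth protocol runs to day 14. A frequency of 20 Hz stands in the labels of DCS and ACS samples alike, although a direct current has none. Whether same-group libraries derive from different cultures is not stated, and the p-values therefore reflect only how these samples vary, which may be technical.

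A direct current flows steadily in 1 direction, whereas an alternating current reverses. When neurons fire, calcium entry switches on immediate early genes such as Fos, Egr1 and Npas4 within minutes, and these transcription factors then drive slower genes such as Bdnf, which encodes a neurotrophic growth factor. Growing cells can also orient along a steady electric field, a behaviour that involves membrane receptors, phosphoinositide signaling and the actin cytoskeleton. The comparison asks which of these programs, or any other, differed in transcript level after a week of daily direct current.

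The libraries held 52370330 to 68690760 estimated counts, and the labelled cell type was checked against its markers. Expression is given below in CPM (counts scaled to a common TMM-adjusted library size), and a log2 fold change is DCS minus control. Summed levels of a list are scaled by the unadjusted library size and take in every member found, tested or not. All 9 pan-neuronal markers were expressed, among them Tubb3 (neuronal tubulin), and their summed level was 7640 to 8570 CPM in control and 7890 to 8130 CPM in DCS libraries. The cultures were not pure, since astrocyte markers summed to 1520 to 1580 CPM in control and 1450 to 1470 CPM in DCS libraries, and microglial markers to 239 to 247 and 240 to 258 CPM. Endothelial and pericyte markers summed to 5.73 to 8.34 CPM, with Rgs5 at 0 in all 6 libraries. In such bulk samples, fewer cells of a type and less RNA per cell cannot be told apart. Libraries were also correlated on log2(FPKM + 1), from the deposited FPKM values of entries with a mean FPKM of at least 1. Correlations were 0.978 to 0.985 within a group and 0.978 to 0.984 between groups, so they did not separate the 6 libraries by treatment. Mitochondrially encoded genes took 6.33% ± 0.677 of the counts in control and 5.45% ± 0.279 in DCS libraries (SD, n = 3 each, two-sided exact permutation test, p = 0.2, where 0.1 is the smallest p that 3 against 3 allows).

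The adjusted test separated few transcripts between DCS and control libraries. Only Dennd1a rose and only 1 long noncoding RNA, AABR07014855, fell at an adjusted p under 0.05 in the edgeR quasi-likelihood test, which is 2 of 16284 genes (0.0123%, or 0.00614% in each direction). This edgeR test is the adjusted test named below unless DESeq2 is given. At an unadjusted p under 0.05, 657 genes were higher (4.03%) and 497 lower (3.05%), 1154 in all (7.09%), where 814 would be expected if no gene differed. This count rested on single libraries, being 2832 without control library 3 and 2005 without DCS library 3, but 611 and 607 without control libraries 1 and 2 and 695 and 705 without DCS libraries 1 and 2, which are below 814. The median log2 fold change over all tested genes was 0.00275. For 13035 genes (80%) the 95% interval of the log2 fold change lay within 1 of 0, so that a change over 2-fold was outside the interval. This share rose with expression, from 5.91% of the genes under 1 CPM to 82.7% between 1 and 10 CPM, 98% between 10 and 100 CPM and 99.3% above 100 CPM. For 62.7% of all tested genes the interval lay within 0.5 of 0. For a gene above 10 CPM a 2-fold response to DCS was therefore usually outside what the data allow, whereas below 1 CPM most genes could not be judged at this depth.

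**Figure D1:**
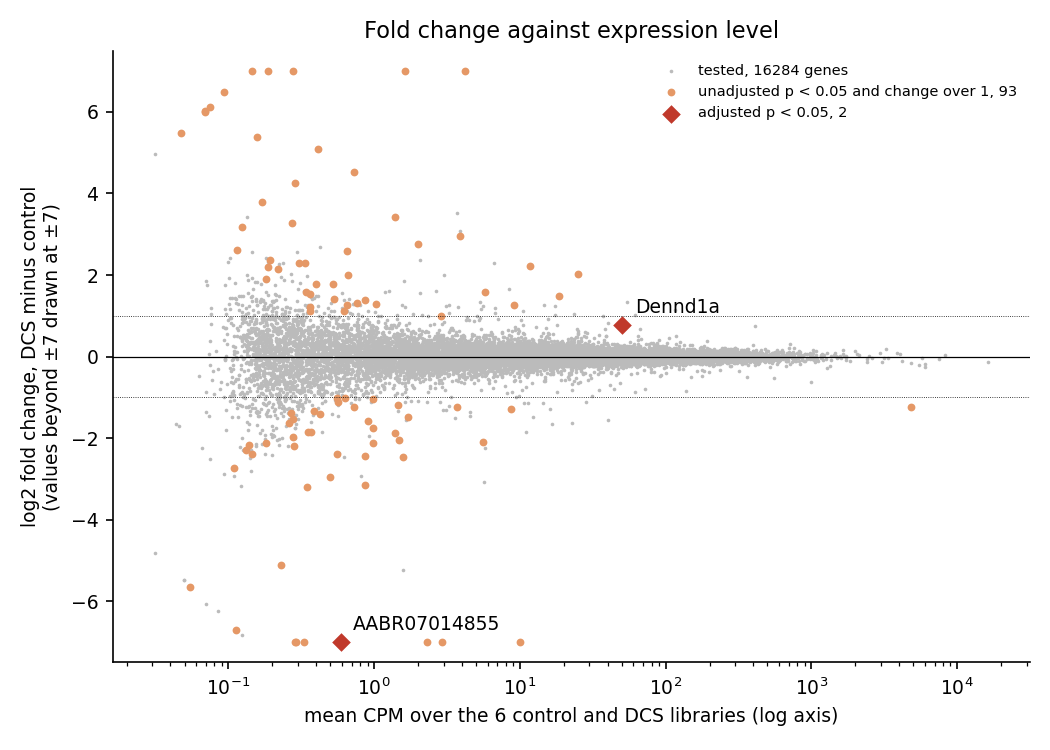
The plot of fold change by expression level shows each of the 16284 tested genes as a point, with mean CPM over the 6 control and DCS libraries on a log axis and the log2 fold change (DCS minus control) on the vertical axis, values beyond ±7 being drawn at ±7 because they come from groups at a count of 0. The 2 genes at an adjusted p under 0.05 are diamonds, and 69 of the 93 genes at an unadjusted p under 0.05 with a change over 1 (orange) have a mean under 1 CPM.

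Dennd1a encodes a DENN domain protein that activates the small GTPase Rab35 and binds clathrin adaptors, and so links endocytosis to receptor recycling. It lies on the minus strand at chr3:22058400-22500765 in the coordinates of the table, whose genome build is not named, and shares part of this span with Crb2 on the opposite strand. Its level was 36.6, 38.1 and 36.8 CPM in control libraries 1 to 3 and 65.0, 64.1 and 61.4 CPM in DCS libraries 1 to 3. The groups did not overlap, and the spread within each was small beside the gap between them (37.2 ± 0.828 against 63.5 ± 1.899 CPM, SD, n = 3 each). The log2 fold change was 0.77 with a standard error of 0.05 (edgeR adjusted p = 0.000611), and the increase stayed below 2-fold. It passed the test in each of the 9 fits that left out 1 library, at log2 fold changes of 0.76 to 0.79. Crb2, a cell polarity gene, was at 2.36, 2.34 and 2.57 CPM in control and 2.70, 3.77 and 2.18 CPM in DCS libraries, which overlapped. In ACS libraries Dennd1a was at 65.4, 66.3 and 61.2 CPM, and the difference between ACS and DCS was 0.02 on the log2 scale (edgeR adjusted p = 0.919), so its level under the 2 kinds of current could not be told apart.

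The list of 41 genes of clathrin-mediated endocytosis and the DENN domain family placed Dennd1a beside its functional partners. Of the 40 tested members, Dennd1a alone passed the test, the median log2 fold change was 0.0418 against 0.00275 for all tested genes, and 38 intervals lay within 1 of 0. The clathrin light chain gene Cltb was at 86.2, 85.4 and 95.9 CPM in control and 101, 103 and 103 CPM in DCS libraries (log2 fold change 0.20, adjusted p = 0.692), whereas the heavy chain gene Cltc was at 946, 970 and 887 against 856, 872 and 873 CPM (-0.11). Fcho1, which starts the formation of clathrin pits, was at 32.8, 32.0 and 34.9 against 45.5, 45.3 and 35.5 CPM (0.34). The DCS libraries of Cltb and Fcho1 lay above and those of Cltc below all control libraries, without passing the adjusted test. A total of 11.1% of all tested genes had groups that did not overlap in this way, 5.59% higher and 5.51% lower, and in this list 7 were higher and 4 lower.

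AABR07014855 is annotated as a long intergenic noncoding RNA on the minus strand at chr14:33960443-33961685. It had 36, 87 and 103 counts in the control libraries, 0, 0 and 0 in the DCS libraries, and 43, 39 and 63 in the ACS libraries. All DCS libraries were thus at 0 while the other 6 held reads. A floor of 12 counts per library was set for DCS (3 fragments, since a fragment may add about 4 to a count). The control mean was 5.81 times and the ACS mean 4.67 times this floor, ratios that leave out the spread between libraries. The edgeR test, which is of the fitted change and not of these ratios, gave an adjusted p of 0.0333 against control and 0.00551 against ACS. These counts are low, and the call against control was lost with the replicate number as a block (adjusted p = 0.252), with the 6 libraries alone (0.541), with counts divided by 4 (0.243) and without 7 of the 9 single libraries (highest adjusted p = 0.169).

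Among genes with a mean of at least 10 CPM and groups that did not overlap, the 10 higher and 10 lower genes of smallest p were examined individually. Apart from Dennd1a they did not pass the adjusted test in edgeR (adjusted p = 0.51 to 0.692), and their changes were modest. Dpysl5, which encodes a collapsin response mediator protein (CRMP5) of growing neurites, was at 601, 677 and 640 CPM in control and 765, 794 and 805 CPM in DCS libraries, a log2 fold change of 0.30 with a standard error of 0.05. The higher genes also included Bmyc, a relative of the Myc oncogene (13.4 ± 0.507 against 18.4 ± 1.16 CPM, 0.46), Pkig, an inhibitor of protein kinase A (21.8 ± 1.04 against 28.2 ± 1.51 CPM, 0.37), and Tmem8a (8.66 ± 0.531 against 12.6 ± 1.25 CPM, 0.54). Zgpat, a zinc finger gene, Slc37a4, the glucose-6-phosphate transporter of the endoplasmic reticulum, and Aurkaip1, a protein of the mitochondrial ribosome, had log2 fold changes of 0.39, 0.30 and 0.26. That every DCS library exceeded every control library in each of these genes was a condition of their selection.

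Arhgef1, an exchange factor that activates RhoA, and Carmil3, a regulator of actin capping protein, lay between control and ACS. Arhgef1 was at 39.8, 41.5 and 41.2 CPM in control, 50.3, 49.3 and 49.3 CPM in DCS and 72.6, 72.4 and 79.2 CPM in ACS libraries. The 3 groups did not overlap, and the ACS libraries were higher than the DCS libraries by 0.59 on the log2 scale (edgeR adjusted p = 0.00124). Carmil3 was at 57.7, 54.4 and 56.2 CPM in control, 82.2, 74.4 and 65.2 CPM in DCS and 113, 109 and 111 CPM in ACS libraries, again a difference between ACS and DCS of 0.59 (adjusted p = 0.00919). Against control, the log2 fold changes under DCS were 0.28 for Arhgef1 and 0.40 for Carmil3 and did not pass the adjusted test.

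The largest decrease among the lower genes of this level was that of Zfp36l2, an RNA-binding protein that promotes the decay of AU-rich messages, at 25.1, 25.2 and 19.1 CPM in control and 10.8, 12.1 and 15.1 CPM in DCS libraries (log2 fold change -0.87, interval -1.21 to -0.52). Sinhcaf, a subunit of the Sin3 histone deacetylase complex, was at 28.4, 31.4 and 27.8 against 12.99, 16.4 and 19.9 CPM (-0.83). The remaining lower genes differed less, with Galnt7, an enzyme of mucin-type glycosylation, at -0.35, Msantd3 at -0.30, the AMPA receptor subunit gene Gria3 at -0.28, the transcriptional repressor gene Mier1 at -0.22, Brwd3 and the cyclin gene Ccnh at -0.21 each, and Wdr26 at -0.17.

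**Figure D2:**
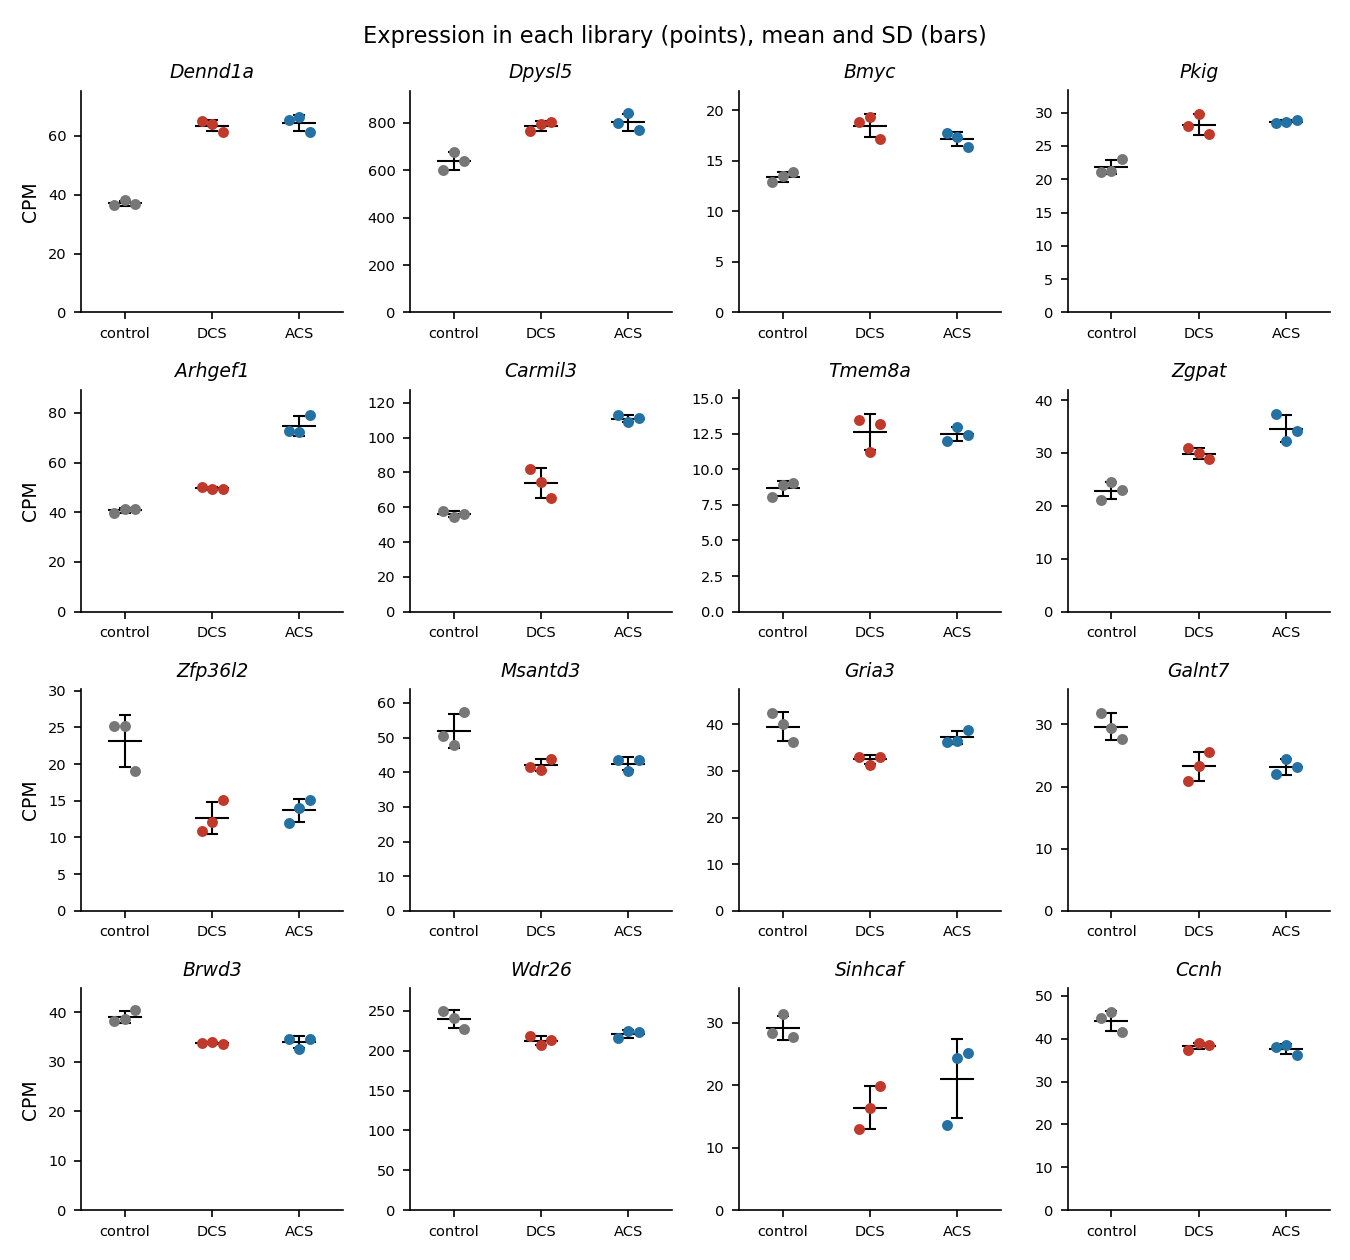
The plot of single genes by library gives CPM (vertical axes from 0) for 16 genes of at least 10 CPM in control, DCS and ACS libraries, with points for the 3 libraries of a group and bars for the mean and SD. The 16 were picked among genes whose control and DCS libraries do not overlap (Dennd1a: 37.2 ± 0.828 against 63.5 ± 1.899 CPM).

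A second tool, fitted to more entries, drew the line elsewhere. DESeq2 took in the 21703 entries with a count above 0 in any library, without the filter on low counts. It called 35 genes, 25 higher and 10 lower, among them both genes called by edgeR. All 35 were also tested by edgeR. In 32 of the 35 the control and DCS libraries did not overlap (11.1% of all tested genes). A small p in the same libraries makes this likely, so it is no separate evidence. Dpysl5, Zfp36l2, Carmil3, Bmyc, Pkig, Arhgef1, Aurkaip1, Tmem8a, Sinhcaf and Zgpat were among them, with DESeq2 adjusted p values of 6.52e-05 for Dpysl5, 7.93e-05 for Zfp36l2 and 0.000819 for Carmil3. DESeq2 also called Nudt11 (adjusted p = 0.000164), Pde6a (0.00234), Col15a1 (0.0203), Leng8 (0.0221) and Cplx4 (0.0324), which are described below. The call count also rested on single libraries. Without control library 3 the edgeR test called 47 genes, 32 higher and 15 lower, which then included Jund, Cltb, Idi1, Zfp36l2, Mt-nd1 and Mt-cyb, and without control library 1 it called 5. It called 1 gene without control library 2, DCS library 3 or any of the 3 ACS libraries, 2 without DCS library 1 and 3 without DCS library 2.

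Thresholds of an unadjusted p under 0.05 with a log2 change larger than 1 in size left 93 genes (0.571% of those tested), of which 47 were higher (0.289%) and 46 lower (0.282%). Most of them were scarcely expressed, since 69 had a mean under 1 CPM and 62 a mean count under 50. In 58 of the 93 the groups did not overlap (11.1% of all tested genes), 31 higher and 27 lower (5.59% and 5.51%). Selection by p in the same libraries makes this likely too. In 20 of the 93 the interval excluded a change under 1 in size. Of the 93 entries, 57 carried a gene symbol and 72 were annotated as protein coding. Without DCS library 3 the count was 209, with 67 higher and 142 lower.

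Among the higher genes at these thresholds were Nudt11, a diphosphoinositol polyphosphate phosphohydrolase, at 0.168, 0.234 and 0.295 CPM in control and 3.60, 0.830 and 3.18 CPM in DCS libraries (log2 fold change 3.43), and Col15a1, a basement membrane collagen, at 0.280, 0.0439 and 0.233 against 1.36, 1.37 and 0.647 CPM (2.60). Sema3b, a secreted repellent of growing axons, was better expressed, at 1.89, 2.11 and 1.71 against 3.68, 4.51 and 3.23 CPM (1.00). The carbohydrate kinase gene Fggy (1.39), the guanine nucleotide exchange factor gene Def6 (1.32) and the sweet and umami taste receptor gene Tas1r3 (1.91) followed, beside Ccdc155, Fndc8, Cyb5rl, Tlcd2 and Daw1, all with a mean under 1 CPM. Moap1, a modulator of apoptosis, was at 0.112, 0.176 and 1.24 against 1.67, 6.75 and 2.05 CPM, and its span overlaps Gon7 on the same strand, so reads of the pair may be split between the entries. None passed the adjusted test in edgeR (adjusted p = 0.692 for each named here), whereas DESeq2 called Nudt11 and Col15a1.

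The lower genes at these thresholds held many genes of rod photoreceptors, the light-sensing cells of the retina. Pde6a, a subunit of the rod phosphodiesterase, was at 0.916, 4.41 and 2.62 against 0.536, 0.623 and 0.287 CPM (log2 fold change -2.46), and Rbp3, the retinoid-binding protein between photoreceptors and pigment epithelium, at 0.636, 1.13 and 1.04 against 0.153, 0.277 and 0.101 CPM (-2.40). The DCS libraries were below the control libraries in both, but control library 1 lay close to the DCS range for Pde6a while control library 2 was far above it.

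Of the 20 photoreceptor markers listed, 17 were tested, none passed the adjusted test in edgeR (DESeq2 called Pde6a), 8 were lower at an unadjusted p under 0.05 against 3.05% of all tested genes, and the median log2 fold change was -1.22. Gnb1, a G protein subunit that neurons express widely, made up most of the summed level. Without it the 18 others found, tested or not, summed to 15.0, 49.9 and 33.3 CPM in control libraries 1 to 3. In DCS libraries 1 to 3 they summed to 16.4, 15.4 and 8.48 CPM, so the groups overlapped. The 16 of them that were tested had a median log2 fold change of -1.32. The median over all 17 lay between -1.65 and -0.877 when 1 library was left out. Tulp1 (-3.21) and Rp1 (-2.12), photoreceptor genes outside the list, were also lower at these thresholds. The phototransduction regulator Pdc (-1.19) and the rod channel subunit gene Cngb1 (-1.41) belonged to the list. The medians under ACS against the same control libraries were -1.10 for the 17 and -1.14 without Gnb1. The list was chosen with these results known, so its count is no independent evidence.

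The other lower genes at these thresholds had no common list. Cplx4, a complexin of retinal ribbon synapses, had a mean count of 14.7 over the 6 libraries and was at 0.262, 0.673 and 0.403 against 0, 0 and 0.0287 CPM. Faslg, the ligand of the death receptor Fas, was at 0.916, 1.08 and 1.05 against 0.517, 0.208 and 0.575 CPM (-1.23). Piwil2, a germline Argonaute protein (-1.04), and Fam163a (-1.85) were also lower, and the small heat shock gene Hspb3 had a mean count of 3.17.

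Several entries past these thresholds held both 0 and a high count within 1 group. A count of 0 beside a count of at least 40 in the same group occurred in 11 of the 93 entries (11.8%) and in 216 of all 16284 tested (1.33%). Zik1, a zinc finger transcription factor, had 1640, 0 and 1921 counts in control, 0, 0 and 0 in DCS and 1180, 1337 and 0 in ACS libraries. Zeros thus occurred in all 3 groups. LOC100911166 had 0, 461 and 459 counts in control, 0, 0 and 0 in DCS and 333, 312 and 382 in ACS libraries, and LOC100911204 had 0, 633 and 538, 0, 0 and 0, and 7, 365 and 39. Both lie inside Stard9 on the same strand, a kinesin gene that was at 22.8, 22.5 and 22.4 against 23.6, 22.3 and 20.99 CPM. All of these were named after their values were seen.

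A similar split appeared without zeros. Fam210a, a mitochondrial membrane protein gene, was at 9.40, 7.13 and 13.1 CPM in control, 58.6, 54.3 and 8.13 CPM in DCS and 8.30, 51.6 and 55.0 CPM in ACS libraries. It was therefore high in 4 and low in 5 of the 9 libraries. Taf9, a subunit of the general transcription factor TFIID, was at 8.54, 9.78 and 10.9 against 27.4, 10.3 and 43.9 CPM, while Ak6, which overlaps it on the same strand, was at 71.5, 71.1 and 67.8 against 134, 68.3 and 63.2 CPM. Mt-atp6, an ATP synthase subunit encoded in the mitochondrial genome, was at 7401, 7435 and 5658 against 5985, 1464 and 1198 CPM, although Mt-atp8 and Mt-co3, which overlap it, were at 1131 to 1621 against 1177 to 1362 CPM and at 5218 to 6110 against 5421 to 5837 CPM. The low values of Mt-atp6 came from DCS libraries 2 and 3 alone, and without DCS library 1 the gene passed the edgeR test (log2 fold change -2.36, adjusted p = 0.000508). Mapt, which encodes the microtubule protein tau, was at 2193 CPM in control library 1 but at 752 and 701 CPM in the other 2 control and 746, 820 and 796 CPM in the DCS libraries. How the counting assigned reads among overlapping entries was not tested.

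**Figure D3:**
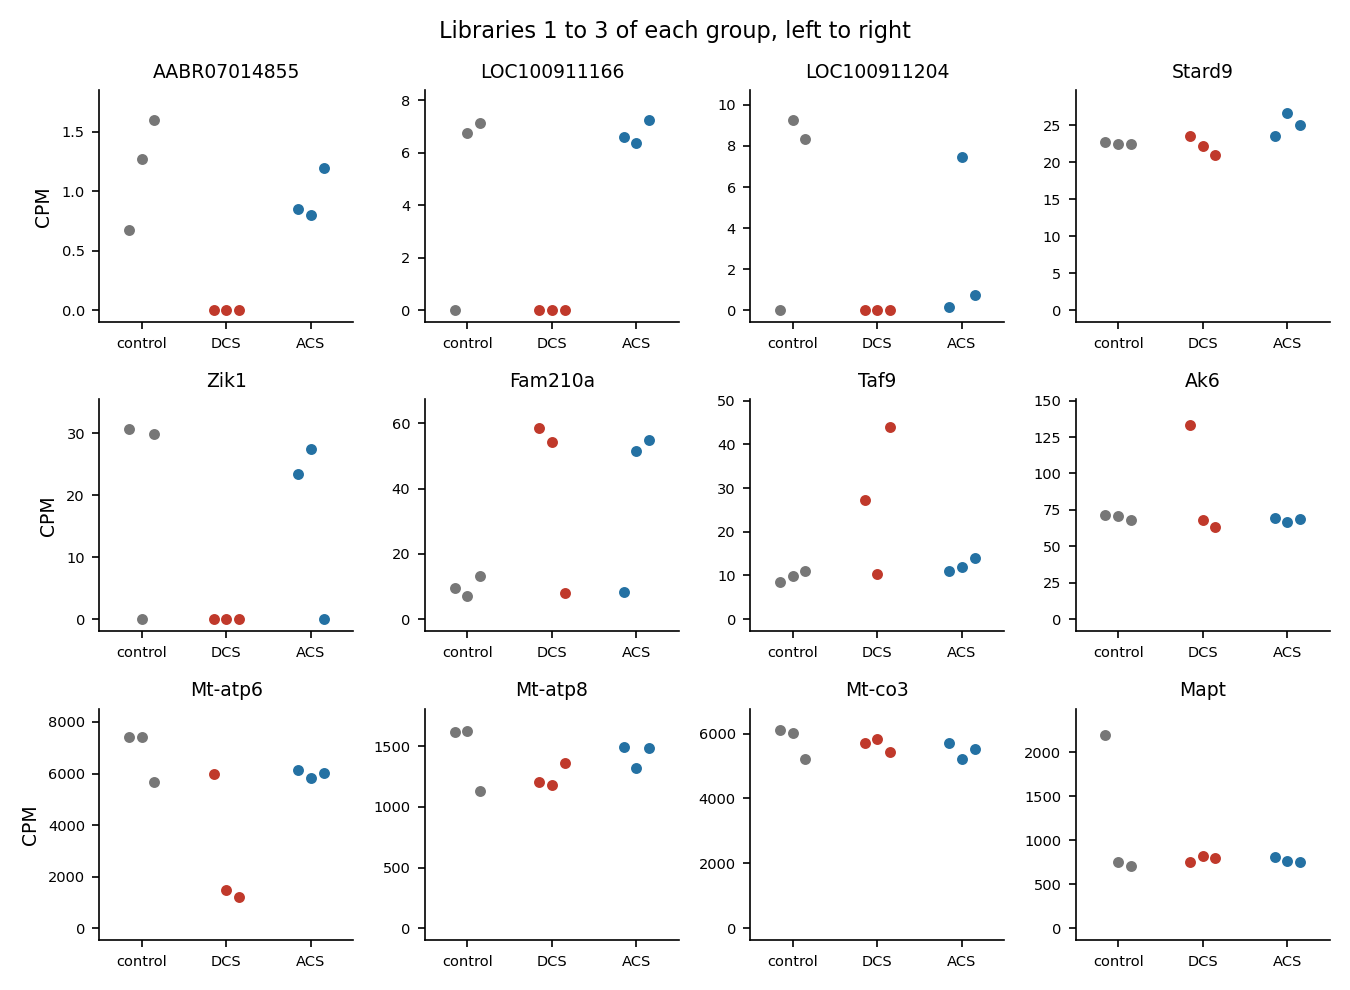
The plot of uneven entries gives CPM (vertical axes in CPM) for 12 entries, with libraries 1 to 3 of control, DCS and ACS from left to right. Single libraries of 1 group lie far apart in Zik1, Fam210a, Taf9, Mt-atp6 and Mapt, whereas Stard9 and Mt-co3, which overlap uneven entries, vary little across the libraries.

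Activity-induced transcription was examined next. None of the 27 immediate early genes passed the test, and their median log2 fold change was -0.0199, with 12 above and 15 below 0. At an unadjusted p under 0.05, 2 were higher (4.03% of all tested genes were), and for 24 of the 27 the interval lay within 1 of 0. Egr1, a zinc finger transcription factor, was at 35.7, 49.1 and 52.8 CPM in control and 33.1, 37.1 and 46.9 CPM in DCS libraries (-0.23, interval -0.59 to 0.13). Fos, a subunit of the AP-1 transcription factor, was at 15.2, 14.1 and 20.6 against 12.6, 13.3 and 20.2 CPM (-0.11, interval -0.55 to 0.33). Npas4, which controls inhibitory synapses on active neurons, was at 5.01, 4.25 and 7.75 against 4.98, 4.51 and 8.71 CPM (0.10, interval -0.57 to 0.77). In all 3 genes the groups overlapped, and an increase over 2-fold under DCS lay outside the interval.

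Under ACS, 4.16% of all tested genes passed the adjusted test against control. Against the same control libraries the median log2 fold change of the 27 genes was 0.774 under ACS. Compared directly, ACS exceeded DCS in 11 of the 27 at an adjusted p under 0.05 (0.633% of all tested genes differed), with log2 differences of 2.41 for Egr1 (adjusted p = 0.00034), 2.59 for Fos (adjusted p = 0.000822), 2.41 for Npas4 (adjusted p = 0.00971) and 2.44 for the nuclear receptor gene Nr4a1 (adjusted p = 0.00551). Within the DCS comparison Jund, an AP-1 subunit of resting cells, was at 71.7, 69.4 and 91.3 CPM in control and 91.0, 92.2 and 97.5 CPM in DCS libraries (0.27), and Egr2 at 1.03, 1.83 and 1.86 against 2.62, 1.59 and 3.29 CPM (0.67). In both, control and DCS libraries overlapped. Control library 3 of Jund lay within the DCS range, and without it Jund passed the edgeR test (log2 fold change 0.41, adjusted p = 0.0332).

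**Figure D4:**
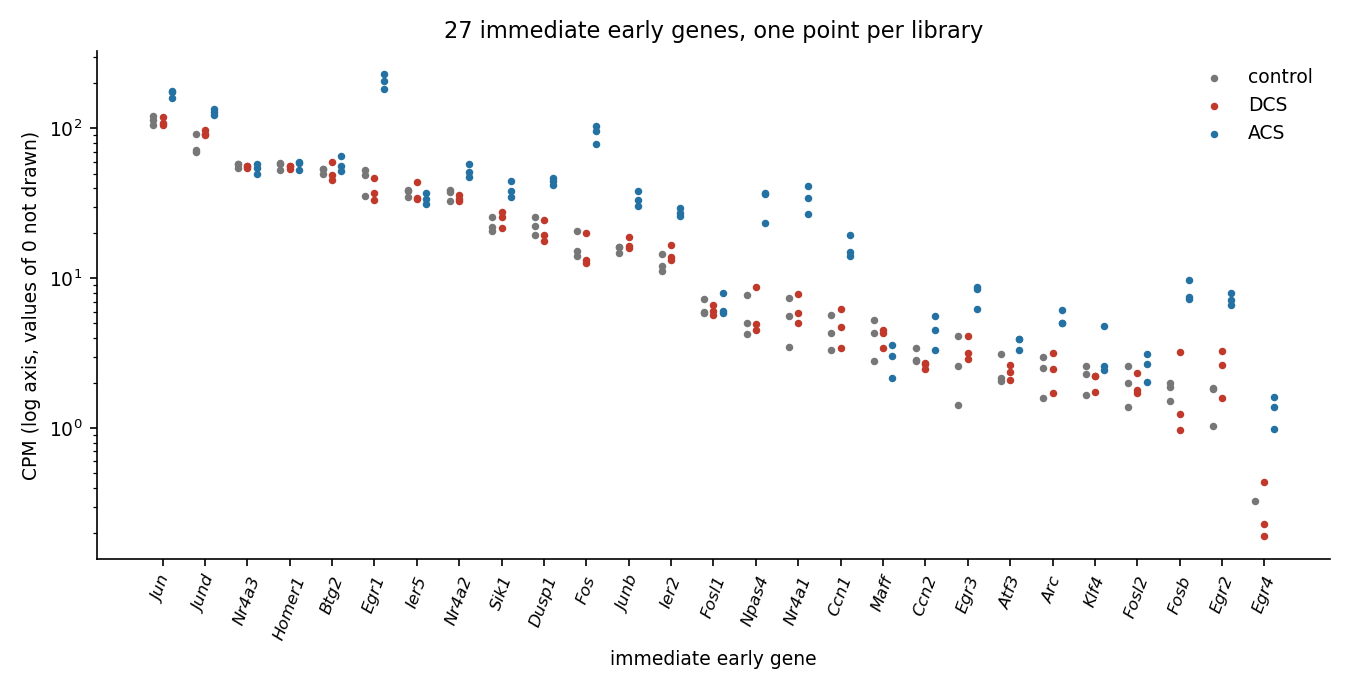
The plot of immediate early genes gives CPM on a log axis for 27 genes, ordered by control level, with 1 point per library in control, DCS and ACS neurons and values of 0 not drawn. Control and DCS points overlap in all but 1 of the 27 genes, while ACS points stand above both for Egr1, Fos, Npas4 and Nr4a1.

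The slower activity-induced genes and the neurotrophic factors showed no change past the test either. Of 23 later activity-induced genes, the median log2 fold change was -0.00217, and Dusp5, a phosphatase of the ERK kinases, had the smallest p, at 2.08, 1.52 and 1.72 against 3.28, 2.63 and 2.23 CPM (0.61, adjusted p = 0.692). Plk2, an activity-induced kinase, was at 272, 269 and 258 against 246, 250 and 258 CPM (-0.09). Of 17 neurotrophic factors and receptors, 12 were tested, with a median of -0.0123. Bdnf was at 3.65, 3.59 and 3.72 CPM in control and 2.38, 3.32 and 4.81 CPM in DCS libraries (-0.06, interval -0.72 to 0.60). Ntf3, which encodes neurotrophin 3, was at 4.24, 3.65 and 3.64 against 4.39, 4.27 and 4.44 CPM (0.18, interval -0.36 to 0.73). The DCS libraries of Ntf3 lay above the control libraries, as did those of 5.59% of all tested genes, at an edgeR adjusted p of 0.868.

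A further list held the genes with RT-qPCR measurements. None of its 11 members passed the edgeR test, and for all 11 the interval lay within 1 of 0. Gap43, a growth cone protein, was at 1036, 1005 and 962 CPM in control and 1116, 1111 and 946 CPM in DCS libraries (0.08, interval -0.06 to 0.22). Dmpk, the myotonic dystrophy protein kinase gene, was at 12.5, 11.99 and 12.4 against 14.4, 14.3 and 12.7 CPM (0.16), and its difference between ACS and DCS was 0.91 (adjusted p = 0.00115). Arc (0.05), a regulator of AMPA receptor uptake, Nr4a1 (0.19) and Ager (0.23), the receptor for advanced glycation end products, had groups that overlapped.

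Neurite growth genes were measured precisely, since many are among the most abundant transcripts of these cells. Of 25 tested genes of axon growth and regeneration the median log2 fold change was 0.00602, and for 24 the interval lay within 0.5 of 0. Dpysl5 (0.30) and Stmn3 were higher at an unadjusted p under 0.05, the latter, a microtubule regulator, at 238, 236 and 247 against 265, 263 and 264 CPM (0.14). Of 38 axon guidance genes, the netrin receptor gene Unc5c was at 63.9, 66.4 and 56.3 against 53.5, 54.1 and 52.7 CPM (-0.22), the repellent gene Slit1 at 46.9, 51.1 and 49.6 against 63.6, 63.0 and 51.8 CPM (0.27) and the ephrin gene Efnb3 at 130, 134 and 131 against 142, 140 and 139 CPM (0.09). Unc5c, Slit1 and Efnb3 were named for their small p, and their groups did not overlap. In the list of 38, 2 genes were higher and 2 lower without overlap, against 5.59% and 5.51% of all tested genes. None passed the adjusted test, and the list's median was -0.0109.

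Genes tied to sensing of an electric field and to directed migration had a median of -0.0618 over 23 tested members. Of these, 17 were below 0 and 6 above, where 50.9% of all tested genes were above 0. At an unadjusted p under 0.05, 3 were lower (3.05% of all tested genes were) and 0 higher. Among these 3 were Atp6v1a, a subunit of the proton pump, at 396, 393 and 372 against 359, 363 and 364 CPM (-0.10), and Egfr, the epidermal growth factor receptor, at 105, 109 and 105 against 95.1, 102 and 89.5 CPM (-0.15). All 25 core genes of PI3K, AKT and mTOR signaling had intervals within 0.5 of 0, and Gsk3b, a kinase that AKT inhibits, was at 173, 164 and 158 against 152, 152 and 156 CPM (-0.11). The median of this list was 0.00704.

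Synaptic and channel genes likewise held no gene past the adjusted test. The median log2 fold change was 0.0403 over 24 presynaptic release genes, 0.00722 over 29 glutamate receptor and scaffold genes, -0.035 over 19 genes of GABA receptors and synthesis, -0.0201 over 32 potassium channel genes and 0.0139 over 27 sodium and calcium channel genes. Gria3 was the member of smallest p among the glutamate genes, at 42.3, 40.1 and 36.1 CPM in control and 33.0, 31.3 and 33.0 CPM in DCS libraries. The scaffold gene Shank1 was at 224, 242 and 233 against 300, 271 and 241 CPM (0.21) and the NMDA receptor subunit gene Grin1 at 115, 122 and 132 against 142, 137 and 129 CPM (0.15), with groups that overlapped. Shank1 was higher under ACS than under DCS by 0.41 (adjusted p = 0.0431). Syt4, a synaptotagmin of secretory vesicles, was at 467, 471 and 436 against 386, 371 and 456 CPM (-0.18).

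Among 37 tested splicing factor and nuclear speckle genes the median was 0.00179, and 4 were higher and 1 lower at an unadjusted p under 0.05 (4.03% and 3.05% of all tested genes). Leng8 was at 114, 119 and 128 against 158, 144 and 134 CPM (0.27), Snrnp70, a protein of the U1 snRNP, at 276, 267 and 290 against 322, 317 and 293 CPM (0.16), and Akap8l at 31.2, 31.1 and 30.2 against 35.9, 35.6 and 31.6 CPM (0.16). In these 3 genes DCS lay between control and ACS, and ACS exceeded DCS by 0.72 for Leng8 (adjusted p = 0.00149), 0.37 for Snrnp70 (adjusted p = 0.012) and 0.52 for Akap8l (adjusted p = 0.00556). Srrm4, the neuronal splicing regulator of microexons, was at 32.0, 33.5 and 33.1 against 36.3, 37.9 and 36.2 CPM (0.17).

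No gene of the cytosolic ribosome or the nuclear-encoded respiratory chain passed the adjusted test. Of 55 tested cytosolic ribosomal protein genes, 43 had a log2 fold change above 0, where 50.9% of all tested genes did, and 9 were higher and 0 lower at an unadjusted p under 0.05 (4.03% and 3.05% of all tested genes). The median was 0.0574. Rpl41 was at 340, 322 and 349 against 390, 397 and 357 CPM (0.18) and Rpl35 at 244, 243 and 261 against 290, 284 and 269 CPM (0.17), and Rps23 (0.18) and Rpl10a (0.22) were similar. Ribosomal protein genes have many processed pseudogenes, so their counts may be shared with other entries. Of 40 nuclear genes of the respiratory chain, 27 were above 0, 4 were higher and 1 lower at an unadjusted p under 0.05, and the median was 0.0388, with Cox8a, a subunit of cytochrome c oxidase, at 46.5, 41.2 and 45.7 against 53.3, 52.7 and 54.2 CPM (0.26) and Ndufa8, a subunit of complex I, at 92.0, 90.2 and 102 against 108, 111 and 107 CPM (0.20).

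The mitochondrially encoded genes lay in the opposite direction, all 13 below 0, with a median of -0.17. Mt-cyb was at 7082, 7076 and 5501 CPM in control and 5666, 5615 and 5288 CPM in DCS libraries (-0.25), Mt-nd1 at 6263, 6321 and 5096 against 5119, 5061 and 5094 CPM (-0.21) and Mt-nd2 at 6837, 6644 and 5646 against 5596, 5602 and 5808 CPM (-0.17). In these genes control libraries 1 and 2 were high while control library 3 lay near the DCS libraries. The share of counts from these genes was 6.80% and 6.65% in control libraries 1 and 2, 5.56% in control library 3 and 5.25% to 5.77% in DCS libraries. The list's median ranged from -0.254 to -0.113 when 1 library was left out, and it was -0.105 under ACS against the same control libraries.

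Stress programs showed no shared direction. The medians were -0.0572 over 21 heat shock and chaperone genes, 0.00205 over 30 genes of oxidative stress and metal response, and -0.0239 over 26 genes of the unfolded protein and integrated stress response, of which none had an unadjusted p under 0.05. Sqstm1, the autophagy adaptor p62, was at 282, 284 and 287 against 325, 331 and 301 CPM (0.16) and the metallothionein gene Mt2A at 21.5, 18.3 and 20.6 against 27.9, 24.8 and 22.9 CPM (0.33). Both were named for their small p, and their groups did not overlap. In the oxidative stress and metal list 4 genes were higher and 4 lower without overlap, against 5.59% and 5.51% of all tested genes. Members of the same list with lower values were the cystine transporter gene Slc7a11, at 76.4, 77.7 and 71.4 against 71.1, 61.1 and 66.3 CPM (-0.18) and Gclm, a subunit of glutamate-cysteine ligase, at 31.0, 30.2 and 27.1 against 24.3, 26.5 and 23.6 CPM (-0.25). Of 25 p53 targets and apoptosis genes the median was 0.0214, and Phlda3 (0.39), an inhibitor of AKT, and Bax (0.17), an effector of mitochondrial cell death, were higher at an unadjusted p under 0.05, whereas Pmaip1 (-0.43), another death gene of the BCL2 family, was lower. None of these genes passed the adjusted test.

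Interferon-induced genes varied more between libraries than between groups. Of 34 tested members, 33 had a log2 fold change below 0 and the median was -0.33, yet none had an unadjusted p under 0.05. Their summed level was 571, 810 and 648 CPM in control and 370, 446 and 788 CPM in DCS libraries, so DCS library 3 lay within the control range while the other 2 lay below it. Mx2, an antiviral GTPase, was at 63.6, 129 and 82.0 against 22.9, 35.4 and 99.8 CPM (-0.79, interval -1.84 to 0.25). The median ranged from -0.778 without DCS library 3 to -0.111. Under ACS it was -0.613 against the same control libraries, and no member differed between ACS and DCS at an adjusted p under 0.05. Among 25 inflammatory mediators the median was -0.00627, with the adhesion gene Vcam1 at 36.5, 39.2 and 32.3 against 29.1, 31.4 and 31.1 CPM (-0.24) and the prostaglandin E synthase gene Ptges at 5.93, 6.31 and 5.43 against 4.18, 5.05 and 4.90 CPM (-0.32).

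Genes of cholesterol and fatty acid synthesis had a median of -0.0282 over 26 tested members, of which 4 were lower and 1 higher at an unadjusted p under 0.05 (3.05% and 4.03% of all tested genes). Insig1, a sensor that holds back sterol synthesis, was at 227, 229 and 232 against 211, 205 and 217 CPM (-0.12), Cyp51, lanosterol demethylase, at 496, 500 and 491 against 454, 435 and 478 CPM (-0.12) and Acaca, which commits acetyl-CoA to fatty acid synthesis, at 401, 409 and 385 against 370, 371 and 369 CPM (-0.11). These genes were named for their small p, and in each the DCS libraries lay below the control libraries. In the list 3 genes were lower and 0 higher without overlap, against 5.51% and 5.59% of all tested genes. Idi1, an isomerase of the same pathway, was at 242, 246 and 204 against 203, 192 and 206 CPM (-0.20). The higher member was Srebf2, the transcription factor that activates sterol synthesis genes, at 239, 256 and 299 against 308, 299 and 286 CPM (0.17), named after its values were seen. Of 28 glycolysis and hypoxia genes and 36 genes of matrix, integrins and proteases none had an unadjusted p under 0.05, with medians of 0.0133 and 0.0148.

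Markers of the cell types in these cultures shifted little. The medians were 0.0434 for 12 markers of excitatory neurons, -0.045 for 9 pan-neuronal markers, 0.0858 for 12 markers of GABAergic interneurons, -0.0774 for 10 markers of astrocytes, -0.073 for 10 markers of the oligodendrocyte lineage and 0.139 for 12 markers of microglia. Fezf2, a transcription factor of deep-layer neurons, was at 8.54, 9.71 and 9.96 against 12.4, 10.4 and 11.4 CPM (0.28), and the astrocyte and radial glia gene Fabp7 at 591, 585 and 538 against 510, 512 and 508 CPM (-0.16). Pdgfra, the receptor of oligodendrocyte precursors, was at 91.1, 99.0 and 96.3 against 78.2, 84.9 and 86.6 CPM (-0.20), and the complement gene C1qa of microglia at 5.37, 4.85 and 3.92 against 6.88, 6.90 and 5.79 CPM (0.47). These 4 genes were named for their small p, and their groups did not overlap, as in 11.1% of all tested genes. Other members went the other way. Below 0 were 5 of the excitatory and 2 of the microglial markers, and above 0 were 2 of the astrocyte and 3 of the oligodendrocyte lineage markers. Ptprc, the leukocyte surface phosphatase CD45 and also a microglial marker, was at 29.5, 31.6 and 32.1 against 22.4, 17.5 and 29.6 CPM (-0.42), with groups that overlapped.

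Of 13 markers of progenitors and dividing cells, 11 were below 0 and 2 above (50.9% of all tested genes were above), and the median was -0.0709. The proliferation marker Mki67 was at 216, 215 and 209 against 186, 192 and 203 CPM (-0.14), Top2a, the topoisomerase of dividing cells, at 199, 202 and 180 against 169, 177 and 177 CPM (-0.15) and the intermediate filament gene Nes at 132, 140 and 128 against 122, 118 and 99.7 CPM (-0.24). These 3 were named for their small p, and were the members lower at an unadjusted p under 0.05 (3.05% of all tested genes were). Their DCS libraries lay below the control libraries, as did those of 5.51% of all tested genes. None of the 3 passed the adjusted test. The summed level of the 13 was 1130 to 1170 CPM in control and 1060 to 1150 CPM in DCS libraries, which overlapped. The rare cell types had few tested markers, with medians of -0.0027 for 6 endothelial and pericyte markers, -0.022 for 5 markers of meningeal fibroblasts, -0.471 for 6 ependymal and choroid plexus markers and 0.452 for 4 erythroid markers. When 1 library was left out, these medians ranged from -0.619 to 0.168, -0.229 to 0.363, -1.01 to -0.0966 and 0.376 to 0.512, so the endothelial and meningeal ones have no settled sign. Erythroid markers summed to 48 to 53 CPM in control and 69.2 to 78.9 CPM in DCS libraries, and all 4 were globin genes. Hba-a1 and Hba-a2 are near-identical copies whose reads cannot be assigned with certainty.

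**Figure D5:**
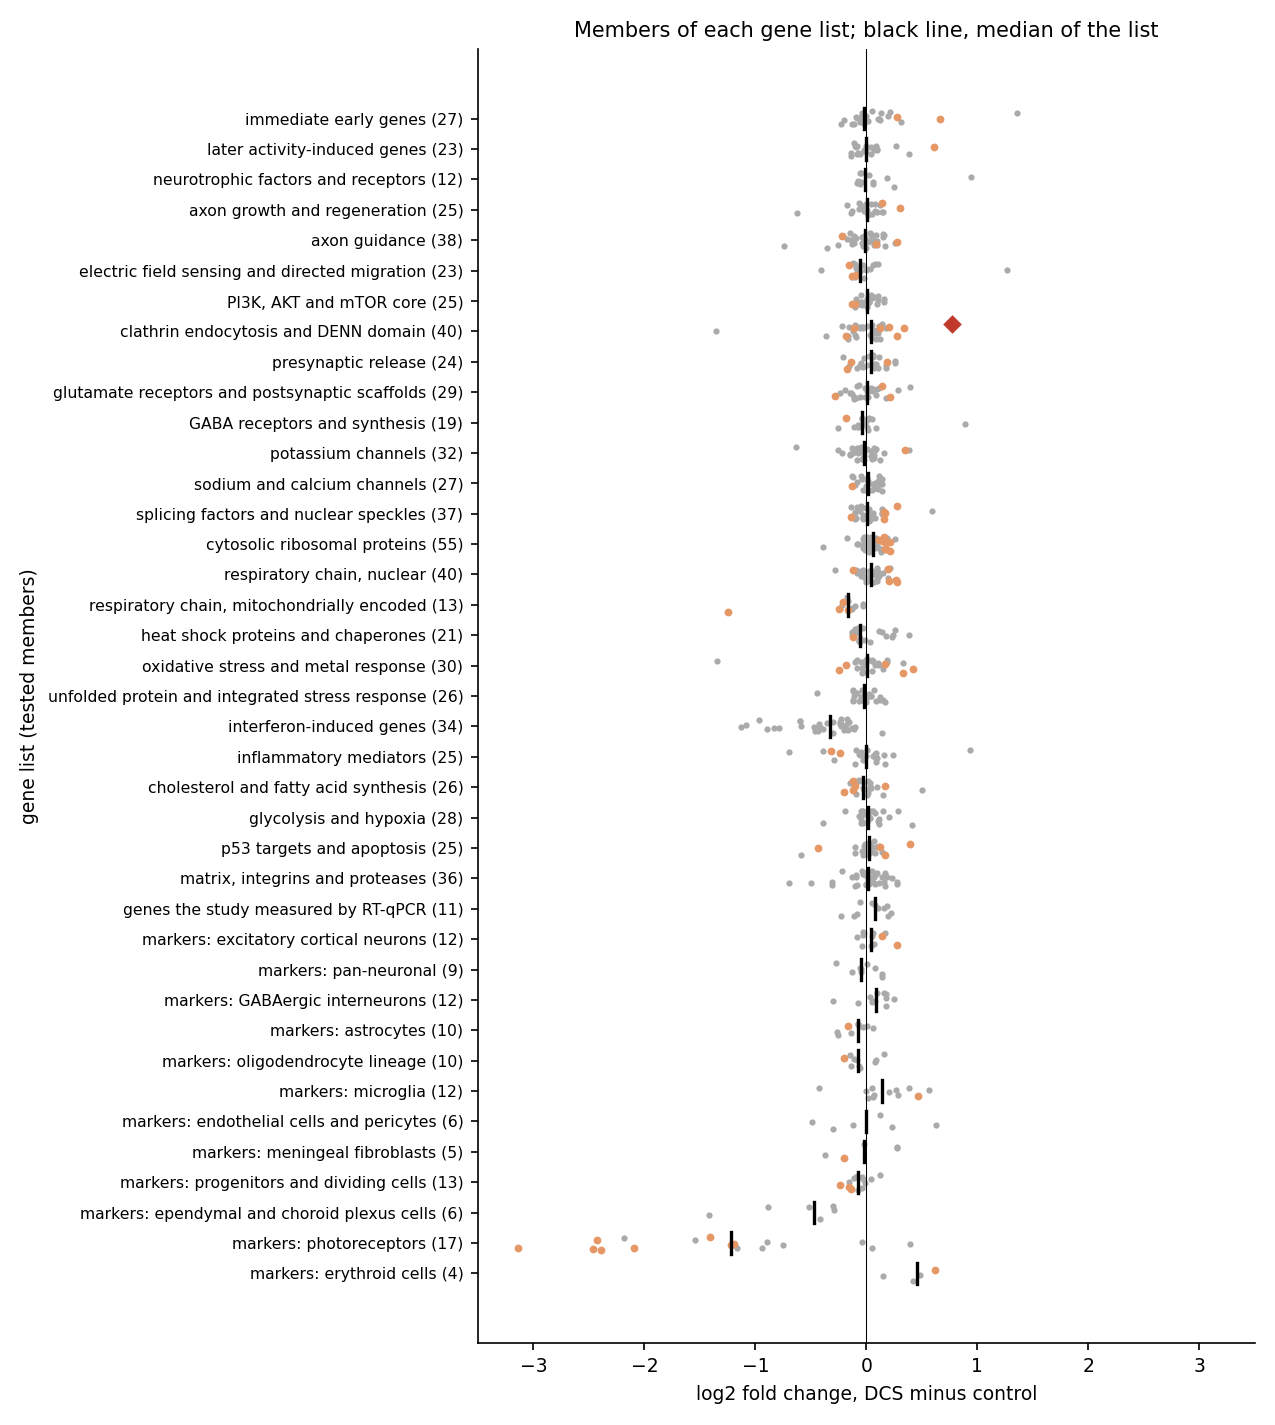
The plot of gene lists gives the log2 fold change (DCS minus control) of each tested member as a point, 1 row per list with the number of tested members, and the list's median as a black line. Orange points have an unadjusted p under 0.05, the diamond is Dennd1a, and the medians lie between -0.17 and 0.139 except for interferon-induced (-0.33), ependymal (-0.471), photoreceptor (-1.22) and erythroid (0.452) genes.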

How the data were processed

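mRNA was measured in 9 libraries, grouped and matched to their table columns by label. Reads were trimmed (fastp in the paper, cutadapt 1.9 in the submitters' processing notes), aligned with HISAT2 (2.0.4) and quantified with StringTie (1.3.4d), and UMI-tools is also named. The deposited FPKM values and the estimated counts beside them, which are whole numbers, were made by the authors per gene and library, with an FPKM of 0 written as 0.0001. The table names no genome build.

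The estimated counts were filtered with filterByExpr (minimum count 10, minimum total 15) and then scaled by TMM. They were tested in R 4.3.3 with the quasi-likelihood test of edgeR 4.0.16 over all 9 libraries, with Benjamini-Hochberg adjustment over the 16284 genes tested. Intervals are 95% intervals from the same fit. Alternatives used limma 3.58.1 on log2(FPKM + 1) and log2(FPKM + 0.1), DESeq2 1.42.0, other filters and scaling, the 6 libraries alone, a replicate block, counts divided by 4 and each library left out in turn. DESeq2 was fitted to the 21703 entries with a count above 0 in any library. Low counts favour multiples of 4 (4, 8 and 12 make up 34.1% of all counts between 1 and 15, against 20% for an even spread), and depth limits genes under 1 CPM most. The libraries are stranded (dUTP), and the strand setting of the counting is not given in the sources used here.

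Same-numbered control and DCS libraries deviated from their group means with correlations of 0.0206, -0.0306 and 0.0542. For differently numbered libraries these were -0.061 to 0.0416. The values gave no sign of pairing by number, but with 3 libraries a group they cannot exclude it. The lists were matched by symbol (860 of 890 symbols found).

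Named genes are those past the adjusted test, the 12 higher and 12 lower genes of smallest p at an unadjusted p under 0.05 and a log2 change over 1 with groups that do not overlap, the 10 higher and 10 lower such genes of at least 10 CPM, up to 4 members of each list by smallest p or highest FPKM, and the RT-qPCR genes. Some genes that this rule names are not reported here. Clone and locus names were only counted, except where the text says otherwise. The comparison, the lists and the rule were chosen with earlier results of these data known.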

Additional observations from a re-analysis of the deposited data

Results flagged for a closer look

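With 3 libraries per group no single library could be tested as an outlier. For 12 genes named in the text, the effects of the 2 kinds of current differed by the edgeR test of ACS against DCS (adjusted p under 0.05). Of all tested genes 0.633% did so. The log2 differences, ACS minus DCS, were 2.59 for Fos, 2.44 for Nr4a1, 2.41 for Egr1, 2.41 for Npas4, 0.92 for Ier2, 0.91 for Dmpk, 0.72 for Leng8, 0.59 for Arhgef1, 0.59 for Carmil3, 0.52 for Akap8l, 0.41 for Shank1 and 0.37 for Snrnp70. Against control, the DCS values of these genes lay between -0.23 (Egr1) and 0.40 (Carmil3), and the ACS values between 0.53 (Snrnp70) and 2.63 (Nr4a1). Ier2, an immediate early gene, was at 11.1, 12.1 and 14.6 CPM in control and 13.3, 13.9 and 16.7 CPM in DCS libraries, which overlapped. AABR07014855 also differed, with an ACS mean 4.67 times the floor set for DCS. The control libraries were the same for both kinds of current.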

How the results depend on the processing

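The count of genes at an adjusted p under 0.05 was 2, and it was 1 with limma on log2(FPKM + 1), with the 6 libraries alone and with counts divided by 4, 35 with DESeq2, and 1 to 47 when 1 library was left out. With the replicate number as a block it was 1, Dennd1a, with AABR07014855 lost. The count at an unadjusted p under 0.05 and a change over 1 was 93, and it was 215 without a filter on low counts (94 higher, 121 lower), 34 at a mean FPKM of at least 1, 173 with DESeq2, 27 and 43 with limma on log2(FPKM + 1) and log2(FPKM + 0.1), 45 with counts divided by 4 and 103 to 209 when 1 library was left out. The count of intervals within 1 of 0 was 12427 to 13659 under all settings, but the number of genes fitted varied as well. It was 16284 in the main fit, 21703 with DESeq2 and without a filter on low counts, and 13366 at a mean FPKM of at least 1. The share within 1 of 0 was thus 80% in the main fit, 59.8% with DESeq2 and 62.9% without a filter. At a mean FPKM of at least 1 it was 93%, and with limma on log2(FPKM + 1) 96.1%. Dennd1a kept its direction and its call under every setting run. AABR07014855 kept its direction under every setting run, and limma on log2(FPKM + 1) gave it an adjusted p of 0.186.

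Leaving out 1 library turned the sign of 10 genes that had not passed the test. Their log2 fold changes ranged from -0.17 to 0.48 for Ager, -0.092 to 0.52 for Ak6, -0.18 to 0.26 for Arc, -0.36 to 0.16 for Bdnf, -0.36 to 0.073 for Fos, -0.90 to 0.12 for Mapt, -0.10 to 0.011 for Mt-co3, -0.26 to 0.40 for Npas4, -0.047 to 0.47 for Nr4a1 and -0.061 to 0.019 for Stard9. The replicate numbers gave no sign of pairing the samples. The causes of these shifts were not tested.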
